A study of Mus musculus with 610 samples.

Results

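Etv5 and Ets1 are transcription factors of the ETS family, and they were 2 of the 48 assays read in 610 single cells of the mouse thymus. They were chosen by name, not by a measured value. Cells of 4 sorted populations were captured one by one, and each assay gave a threshold cycle (Ct) by quantitative PCR after a preamplification of 18 cycles. Level is 24 minus Ct, in PCR cycles, and detection means a Ct below 24 in that cell. Levels of different genes cannot be compared, since primers differ in efficiency.

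ETS factors bind DNA through a conserved domain that reads a GGAA core. Etv5 belongs to the PEA3 subgroup, which is often induced by growth factor signalling, and is known for a role in gamma delta T cells that make interleukin 17. Ets1 is expressed widely in lymphocytes and is needed for normal T cell development, and Spi1 (PU.1), a more distant member, is known for myeloid and early progenitor cells.

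C57BL/6J mice aged 7 to 10 postnatal days gave the B6 DN1d cells, which were sorted as live, TCR delta negative, lineage negative, CD44 positive, CD25 negative, CD24 positive and cKit negative; runs 1, 2 and 3 held 72, 70 and 81 cells. Tcrd-/- DN1d cells (86, all in 1 run) were gated alike at the same ages from B6.129P2 mice with the Tcrd tm1Mom allele. B6 DN2 cells (78, all in 1 run), positive for CD44, CD25 and cKit, had the same strain and ages as B6 DN1d. Rag1-/- cKit- cells came from B6.129S7 mice with the Rag1 tm1Mom allele on postnatal days 0 to 2, had CD44 but neither CD25 nor cKit, with no CD24 gate, and gave runs of 89, 52 and 82 cells. The replicate is the run, and the labels tie no run to particular animals. A p-value here therefore reflects run-to-run spread, possibly technical, and run and group cannot be told apart. Tcrd-/- and DN2, each a single run, were taken to have the same spread as the other groups.

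The T lineage marker Gata3 was detected in 220 of 223 B6 DN1d, 86 of 86 Tcrd-/-, 78 of 78 DN2 and 222 of 223 Rag1-/- cells. The myeloid marker Csf1r was detected in 0, 0, 2 and 0 cells of these groups, but Csf2rb2 was detected in 34 and Gp49a in 37 of the 223 B6 DN1d cells. Other T lineage markers, Bcl11b, Tcf7 and Notch1, were detected in 155, 135 and 76 of 223 B6 DN1d cells. For Rag1-/- the counts were 189, 214 and 128 of 223. By run, Bcl11b was detected in 65 of 72, 60 of 70 and 30 of 81 B6 DN1d cells. In the Rag1-/- runs it was detected in 78 of 89, 44 of 52 and 67 of 82 cells. Only run 3 of B6 DN1d thus lay below all Rag1-/- runs for Bcl11b. Innate lymphoid markers Id2, Il7r, Zbtb16 and Nfil3 were detected in 222, 207, 139 and 119 of 223 Rag1-/- cells. For B6 DN1d these counts were 146, 112, 18 and 21 of 223. The gamma delta receptor junction Vg2-Jg1 was detected in 0 of 223 Rag1-/- cells, and Vd4-Jd1 in 0 of 223 Rag1-/- and 45 of 86 Tcrd-/- cells. Whether the junction assays lie in the part of Tcrd that the allele alters is not stated in the labels, so they do not check that label. The mean number of assays detected per cell was 19.2 to 20.3 in the B6 DN1d runs, 30.9 in Tcrd-/-, 28.5 in DN2 and 21.6 to 24.3 in the Rag1-/- runs.

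Etv5 (gene ID 104156) lies on chromosome 16 from 22381313 to 22439570 and Ets1 (gene ID 23871) on chromosome 9 from 32636241 to 32757820 in GRCm38.p6, and both are protein coding. The 250 bases before each of the RefSeq starts of Etv5 are shown because Etv5 was detected together with genes of HMG box factors, whose binding motifs can be looked for there. Capitals mark a match to GGAAGT, a longer form of the ETS core GGAA. The shorter GGAA, which the second window also holds elsewhere, was neither marked nor counted. Both windows are on the minus strand of GRCm38.p6, at chr16:22439571-22439820 and chr16:22438369-22438618.
Etv5 start 1: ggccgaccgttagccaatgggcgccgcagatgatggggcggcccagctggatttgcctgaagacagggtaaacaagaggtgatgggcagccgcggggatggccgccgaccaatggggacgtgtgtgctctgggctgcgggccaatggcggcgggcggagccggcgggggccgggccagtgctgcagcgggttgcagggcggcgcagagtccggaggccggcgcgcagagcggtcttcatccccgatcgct
Etv5 start 2: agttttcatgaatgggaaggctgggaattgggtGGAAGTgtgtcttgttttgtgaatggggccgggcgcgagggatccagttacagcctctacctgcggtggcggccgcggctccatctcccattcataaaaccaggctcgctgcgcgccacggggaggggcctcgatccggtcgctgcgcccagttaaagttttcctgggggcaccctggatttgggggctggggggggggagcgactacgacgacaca
The second window held 1 GGAAGT on the same strand, whose first base lies 217 bases before the start, and the first window held none. Neither window held ACAAAG, a SOX and TCF core, or ACAAT, a SOX core, on either strand. Of 32536 promoter windows of this length, 19.8% held GGAAGT, 16.5% ACAAAG and 27.4% ACAAT on either strand. A match is a description of the letters only.

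Etv5 was detected in 171 of 610 cells, most often in Tcrd-/- DN1d and least often in Rag1-/-. It was detected in 25 of 72, 23 of 70 and 27 of 81 cells of the B6 DN1d runs, or 33.6% ± 0.969 (SD, n = 3). In Tcrd-/- DN1d it was detected in 82 of 86 cells, or 95.3% (exact 95% interval 88.5% to 98.7%). The 3 B6 DN1d runs lay close together, and the Tcrd-/- run lay far above all of them. In DN2 it was detected in 6 of 78 cells, or 7.69% (2.88% to 15.99%). In the Rag1-/- runs it was detected in 4 of 89, 1 of 52 and 3 of 82 cells, or 3.36% ± 1.31 (SD, n = 3). The DN2 run and all Rag1-/- runs lay below all B6 DN1d runs, with no overlap. These intervals cover counting error only.

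**Figure D1:**
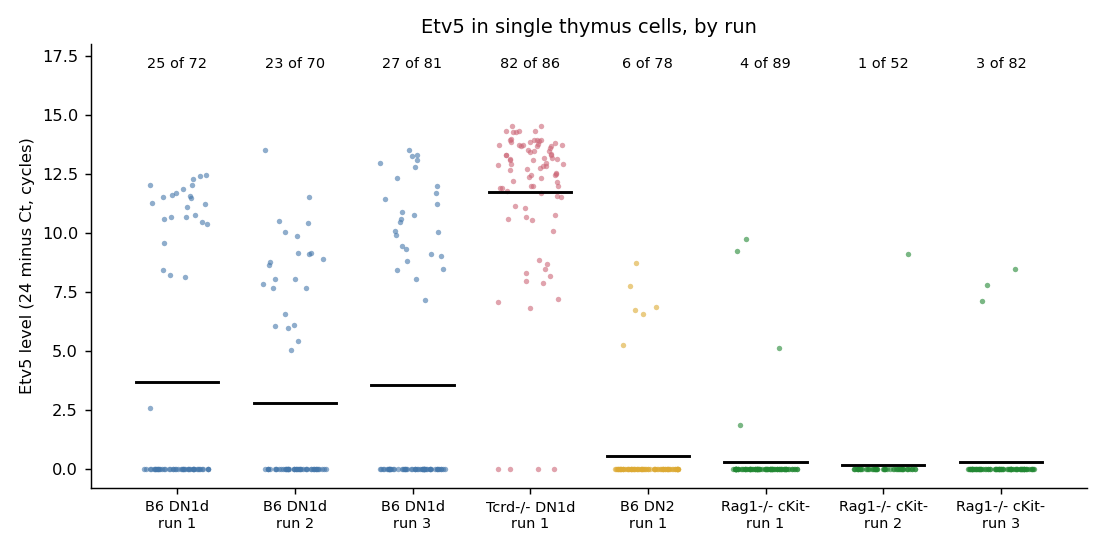
Etv5 level (24 minus Ct, in PCR cycles) of each cell by run, with undetected cells at 0; the line is the mean over all cells of the run and the numbers are cells with Etv5 detected of all cells. In the Tcrd-/- run 82 of 86 cells lie above 0, against 25 of 72, 23 of 70 and 27 of 81 in B6 DN1d.

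The limma fit of the share of detected cells, on the logit scale, gave a difference from B6 DN1d of 3.58 ± 0.48 (SE) in Tcrd-/- (adjusted p = 1.44e-05), higher in 1 of 1 run. It gave -1.74 ± 0.48 in DN2 (adjusted p = 0.00274) and -2.53 ± 0.34 in Rag1-/- (adjusted p = 2.38e-06), lower in 3 of 3 Rag1-/- runs. Many assays passed in the same comparisons: 55.3% of 47 in Tcrd-/-, 66% in DN2 and 59.6% in Rag1-/-, in either direction. Assays that passed and fell made up 0% of the 47 tested in Tcrd-/-, 21.3% in DN2 and 25.5% in Rag1-/-. With the number of other assays detected in the cell as a covariate, the differences of Etv5 were 1.64 (limma, adjusted p = 0.0320), -4.42 (3.62e-07) and -3.82 (7.84e-08). An exact two-sided permutation test of the Rag1-/- against the B6 DN1d runs gave p = 0.1 for detection and for the mean level of Etv5, the smallest that 3 runs against 3 allow.

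The mean Etv5 level over all cells followed the shares. It was 3.68, 2.77 and 3.56 in the B6 DN1d runs, 11.74 in Tcrd-/-, 0.54 in DN2, and 0.29, 0.17 and 0.28 in the Rag1-/- runs. Etv5 level rose by 8.40 ± 0.39 cycles (SE) in Tcrd-/- (limma, adjusted p = 6.85e-05) and fell by 2.80 ± 0.39 in DN2 (0.00272) and by 3.08 ± 0.28 in Rag1-/- (0.000917), where 61.7%, 57.4% and 55.3% of 47 assays passed. DN2 and Rag1-/-, neighbours in this order, did not differ beyond their spread (0.29, 95% interval -0.73 to 1.30, limma adjusted p = 0.617).

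Among the cells that had Etv5, its level also varied between runs of 1 group. The mean over detected cells was 10.60, 8.43 and 10.67 in the B6 DN1d runs, with cells from 2.57 to 12.45, 5.03 to 13.50 and 7.17 to 13.51. It was 12.31 in Tcrd-/- (6.79 to 14.54) and 6.98 over the 6 DN2 cells (5.24 to 8.74). Run 2 of B6 DN1d lay below runs 1 and 3. Its mean Gapdh level was also the lowest, 14.2 against 15.1 in run 1 and 14.7 in run 3. The part of this in the Etv5 level was not tested. Rag1-/- run 2 had 1 detected cell and was left out of this fit; runs 1 and 3 had means of 6.49 and 7.78. The level in detected cells was lower in Rag1-/- than in B6 DN1d by 2.76 ± 0.85 cycles (limma, adjusted p = 0.0420, 7 runs), where 12.8% of 39 assays passed. That call was lost without B6 DN1d run 1 (-2.41, adjusted p = 0.264) or Rag1-/- run 1 (-2.12, adjusted p = 0.307). The differences of 2.41 ± 1.08 in Tcrd-/- (limma, adjusted p = 0.142; 2.22% of 45 assays passed) and -2.92 ± 1.08 in DN2 (0.0759; 10.5% of 38) did not pass. They passed without B6 DN1d run 3 in Tcrd-/- (2.80, limma adjusted p = 0.0151), and without run 2 (-3.66, 0.0248) or run 3 (-2.54, 0.0242) in DN2.

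Within B6 DN1d, Etv5 was detected in the same cells as a large group of genes. Each run gave a log odds ratio of detection with Etv5 for each gene, and 24 of the 39 other genes tested passed in limma against 0 (61.5%), 20 positive and 4 negative. The largest were those of Blk, a Src family kinase (4.17 ± 0.50, SE, adjusted p = 4.04e-11), and Sox13, an HMG box factor of gamma delta T cells (4.07 ± 0.49, 4.04e-11). Next was Myb, a progenitor transcription factor (3.56). Cd163l1 (3.01), the protease gene Gzma (2.85), the interleukin 17 receptor subunit gene Il17re (2.57), the junction Vg2-Jg1 (2.51), the HMG box factor Tox (2.42), Maf (2.40) and the chemokine receptor gene Ccr9 (2.39) were also positive. Csf2rb2, a cytokine receptor subunit, was the most negative (-2.70 ± 0.48, adjusted p = 1.70e-06). This fit pooled the spread over the 39 genes (78 degrees of freedom), which share the same cells. Its p-values thus rest on more than the 3 runs. With 1 run left out, the limma adjusted p reached 0.0335 for Blk, 0.0212 for Sox13 and 0.0267 for Csf2rb2.

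**Figure D2:**
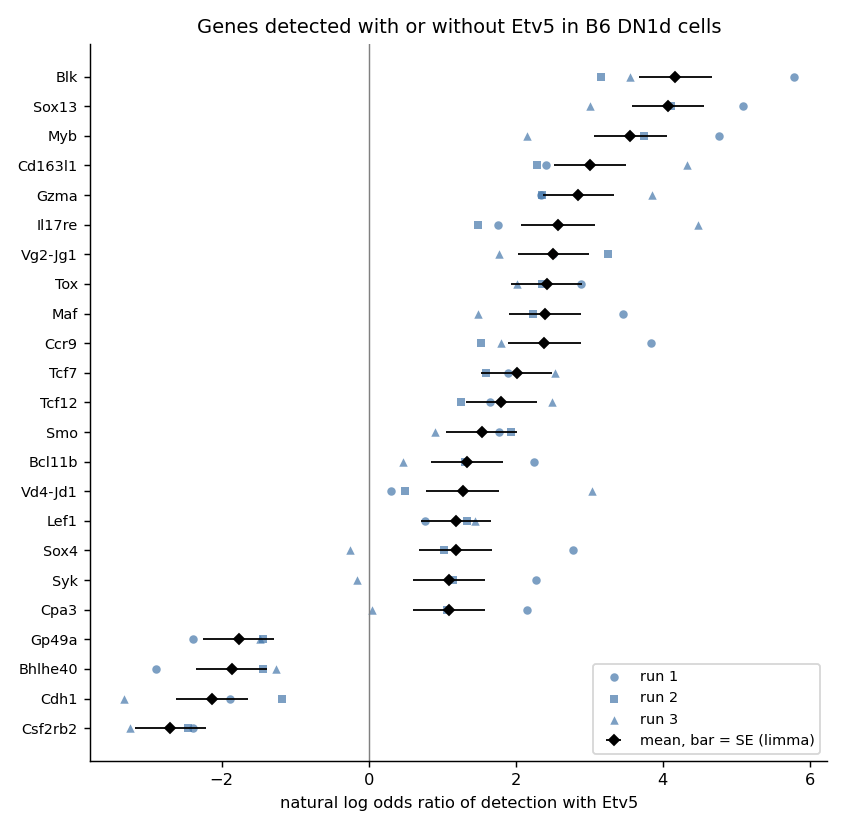
Natural log odds ratio of detection with Etv5 (x axis, no unit) for genes past the threshold in B6 DN1d; symbols are the 3 runs, diamonds the mean with its SE from limma. Blk and Sox13 have the highest means, 4.17 and 4.07, and Csf2rb2 the lowest, -2.70.

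Blk was detected in 25 of 25, 20 of 23 and 17 of 27 cells with Etv5, against 6 of 47, 9 of 47 and 2 of 54 cells without it. Myb was detected in 25 of 25, 22 of 23 and 19 of 27 cells with Etv5, against 14 of 47, 12 of 47 and 11 of 54 without. Csf2rb2 was detected in 0 of 75 cells with Etv5, which allows a share of up to 4%, and in 34 of 148 without. In each run Blk and Myb were the more frequent in cells with Etv5, and among those cells run 3 had the lowest shares of both. Of the list of HMG box and Tgd17 genes, 9 of the 10 tested were positive and Il7r did not pass, and Tcf7, Lef1 and Sox4 lost their calls within tertiles of the number of other assays; the median log odds ratio was 2.49, against 1.09 over all 39 genes. Of the T cell receptor signal list Blk and Syk were positive and Egr2 did not pass, and of the T lineage list Bcl11b and Tcf12 were positive and 4 others did not pass.

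Cells with Etv5 had more other assays detected: 25.2, 24.3 and 23.4 on average in runs 1 to 3, against 17.1, 17.1 and 16.6 in cells without it. Their Gapdh level differed by 0.06 cycles ± 0.42 (SE; limma, adjusted p = 0.934). Within tertiles of the number of other assays, 12 positive and 3 negative genes passed, among them Blk (3.32) and Sox13 (3.30). Csf2rb2 and the positive genes from Blk to Ccr9 given above with their log odds ratios passed there. Of the lists, Tcf7 (0.90, limma adjusted p = 0.256), Lef1 (0.31, 0.762), Sox4 (-0.25, 0.833), Syk (0.40, 0.651), Bcl11b (0.81, 0.303) and Tcf12 (0.55, 0.502) did not pass within tertiles. The number of positive genes was 11 without run 1 and 13 without run 2, and that of negative genes 1 without run 1. Il17re did not pass without run 1 (2.98, limma adjusted p = 0.0574), nor Ccr9 without run 3 (2.68, 0.0600). The part of the number of assays in the remaining links was not tested.

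The share of Sox13-detected cells that also had Etv5 was highest in Tcrd-/- and lowest in Rag1-/-. Etv5 was detected in 25 of 36, 22 of 31 and 20 of 26 Sox13-detected cells of the B6 DN1d runs, or 69.4%, 70.97% and 76.9%. In Tcrd-/- this was 81 of 83 cells (97.6%), and in DN2 6 of 69 (8.70%, exact interval 3.26% to 18.0%). In Rag1-/- it was 0 of 25 (0% to 13.7%). Over all cells the order was the same, with Etv5 in 95.3% of Tcrd-/-, 33.6% of B6 DN1d, 7.69% of DN2 and 3.59% of Rag1-/- cells. The DN2 and Rag1-/- intervals include the share of Etv5 over all cells of the same group. The difference between groups in the share was not tested.

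**Figure D3:**
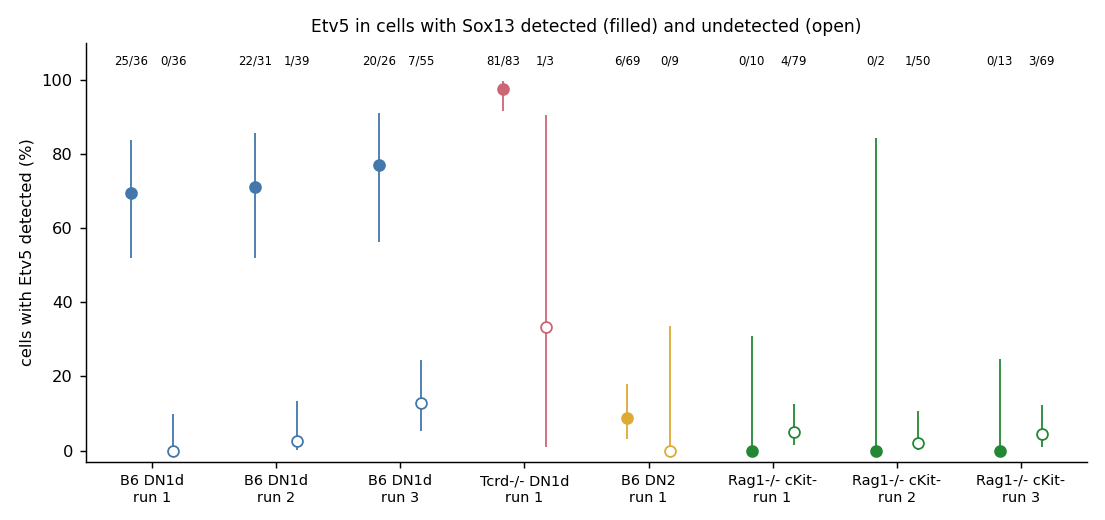
Percent of cells with Etv5 detected among cells with Sox13 detected (filled) and undetected (open), by run, with exact 95% intervals for counting error and the counts above. B6 DN1d lies at 69.4% to 76.9% with Sox13, Tcrd-/- at 97.6%, DN2 at 8.70% and all Rag1-/- runs at 0.

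Cells that had both Sox13 and Blk were mostly Etv5-positive in the DN1d groups. Etv5 was detected in 25 of 31, 20 of 29 and 16 of 17 such cells of the B6 DN1d runs, and in 77 of 77 in Tcrd-/-. In Rag1-/- 0 of 13 such cells had Etv5, which allows up to 23.1%, and in DN2 2 of 9 had it. Of B6 DN1d cells with neither gene, 7 of 128 had Etv5. Sox13 and Blk were the 2 partners with the largest log odds ratios with Etv5 in these same B6 DN1d cells. High shares there follow from that choice and are no separate test. Among all Tcrd-/- cells, 82 of 86 had Etv5. The 8 Rag1-/- cells with Etv5 had levels from 1.85 to 9.75; all 8 had Maf, 8 had Id2 and 0 had Sox13, where 171, 222 and 25 of all 223 Rag1-/- cells had these genes. The 6 DN2 cells with Etv5 all had Sox13 and Id2, which 69 and 61 of all 78 DN2 cells had, and 2 had Blk.

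Ets1 was detected in 609 of 610 cells, so it is described by level. The exception was a cell of B6 DN1d run 1. Mean Ets1 level was 11.15, 10.61 and 11.53 in the B6 DN1d runs, 13.24 in Tcrd-/-, 11.13 in DN2, and 12.66, 12.27 and 12.38 in the Rag1-/- runs. Tcrd-/- was the highest, all Rag1-/- runs lay above all B6 DN1d runs, and DN2 lay within the B6 DN1d runs. Over detected cells, the lowest, median and highest level were 5.23, 11.31 and 15.13 in B6 DN1d run 1, 6.25, 10.64 and 13.43 in run 2 and 7.77, 11.75 and 15.03 in run 3. They were 8.71, 13.40 and 15.20 in Tcrd-/- and 7.15, 11.28 and 14.03 in DN2.

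**Figure D4:**
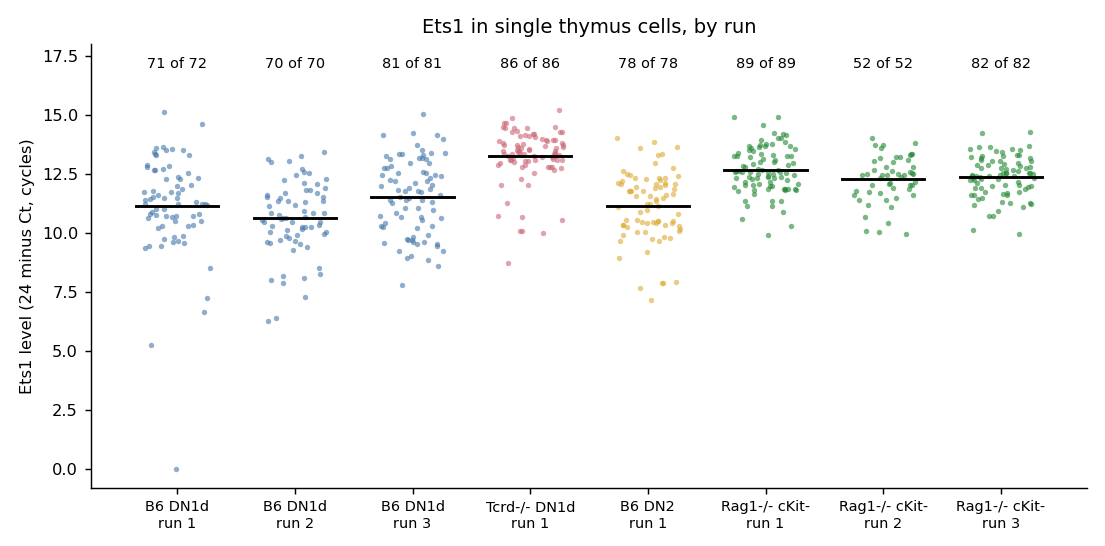
Ets1 level (24 minus Ct, in PCR cycles) of each cell by run; the line is the mean and the numbers are cells with Ets1 detected of all cells. Run means lie from 10.61 to 11.53 in B6 DN1d and from 12.27 to 12.66 in Rag1-/-, and at 13.24 in Tcrd-/-.

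Ets1 level rose by 2.14 ± 0.40 cycles (SE) in Tcrd-/- (limma, adjusted p = 0.00835, 1 of 1 run) and by 1.34 ± 0.28 in Rag1-/- (limma, adjusted p = 0.0121, 3 of 3 runs) against B6 DN1d. DN2 differed from it by 0.03 ± 0.40 (limma, adjusted p = 0.948, 95% interval -0.997 to 1.05). Over all 47 assays the median level difference from B6 DN1d was 3.06 cycles in Tcrd-/-, 0.84 in Rag1-/- and 1.13 in DN2. In these comparisons 61.7%, 55.3% and 57.4% of the assays passed. By this measure, with undetected cells at 0, the Ets1 rise lay below the median in Tcrd-/- and above it in Rag1-/-. Ets1, detected in nearly every cell, could hardly gain by detection as other assays could. In detected cells the median difference over 45 assays was 1.38 in Tcrd-/-, below the 2.09 of Ets1. Tcrd-/- and Rag1-/-, neighbours at the top of the order, differed by 0.80 (interval -0.22 to 1.83, limma adjusted p = 0.137; 55.3% of 47 assays passed). The Rag1-/- difference was 0.79 with each cell's level shifted by its Gapdh level (limma, adjusted p = 0.0616) and 1.26 by medians (0.0715). DN2 was below Rag1-/- by 1.31 ± 0.40 (limma, adjusted p = 0.0444; 51.1% of 47 assays passed), a call lost without B6 DN1d run 1 (0.0846) and without each Rag1-/- run (0.0643 to 0.0942). In the fit over detected cells alone, Ets1 passed in none of the 3 comparisons with B6 DN1d. Its 2.09 in Tcrd-/- had a limma adjusted p of 0.142, and 0.0372 without B6 DN1d run 3. The Ets1 values were nearly the same in both fits, with a B6 DN1d mean of 11.10 over all cells and 11.15 over detected cells. In each fit limma drew the spread partly from the other assays, which differ more between the 2 measures.

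The spread of Ets1 level between cells also differed. Its SD over detected cells was 1.71, 1.56 and 1.59 in the B6 DN1d runs, and 0.977, 0.977 and 0.869 in the Rag1-/- runs. It was 1.16 in Tcrd-/- and 1.45 in DN2. The Rag1-/- runs lay below all B6 DN1d runs, a difference of -0.679 in the mean SD (exact two-sided permutation p = 0.1, the smallest possible).

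Within B6 DN1d, mean Ets1 level was 11.83, 11.06 and 12.51 in cells with Etv5 and 10.79, 10.39 and 11.04 in cells without it, for runs 1 to 3. In each run it was higher in the cells with Etv5, by 1.04, 0.66 and 1.48 cycles. The mean of 1.06 passed in the fit of Ets1 level over 40 genes (SE 0.34, limma adjusted p = 0.0115) and did not in the fit of 45 genes by Etv5 detection (SE 0.43, limma adjusted p = 0.0697), where 55.6% passed. With Gapdh level and the number of other assays as covariates it was -0.22 (limma, adjusted p = 0.693), and without run 1 or run 3 it was 1.07 (limma, adjusted p = 0.0511) or 0.85 (0.134). In Tcrd-/- Ets1 level was 13.36 in the 82 cells with Etv5 and 10.89 in the 4 without. Those 4 cells also had fewer other assays detected, 19.75 on average against 30.4 in the 82.

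**Figure D5:**
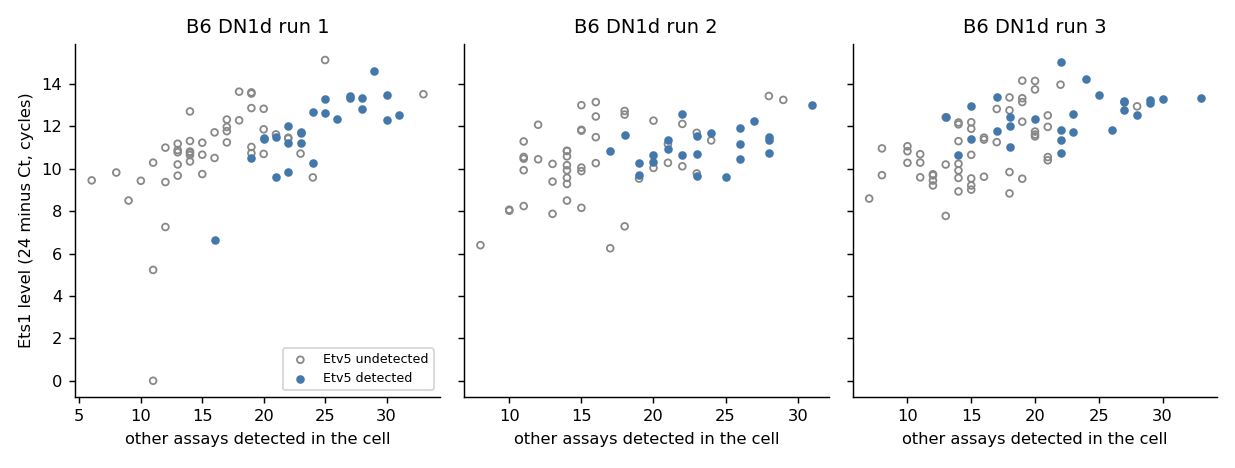
Ets1 level (24 minus Ct, in PCR cycles) against the number of other assays detected in the cell, for the 3 B6 DN1d runs; filled points had Etv5 detected. The axis leaves out Etv5 and Ets1. Cells with Etv5 lie to the right: with Ets1 counted, they had 25.2, 24.3 and 23.4 other assays on average against 17.1, 17.1 and 16.6.

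Ets1 level was higher in the cells that had any of 23 genes and lower in those that had any of 3, of 40 tested in B6 DN1d (65%). The largest differences were those of Gp49a (-1.89), Tox (1.73), the HMG box factor Tcf7 (1.66), Csf2rb2 (-1.64) and the E47 form of Tcf3 (1.63). Zbtb16 (1.55), Tcf12 (1.52), Cdh1 (-1.50), Lef1 (1.48), Gzma (1.40) and Sox4 (1.38) followed. With Gapdh level and the number of other assays as covariates 0 of 40 passed in limma (11 at an unadjusted p under 0.05). The genes just named kept their direction there, such as Tox (1.06) and Gp49a (-1.25). Their limma adjusted p was 0.0550, except for Gzma (0.821) and Sox4 (0.775). Without run 3, and without these covariates, 0 passed. Spearman's rho of Ets1 level with the number of assays detected was 0.65, 0.45 and 0.65 across the cells of the B6 DN1d runs, as a description. In Rag1-/- 5 of 30 genes passed (16.7%), led by Il7r (0.95, limma adjusted p = 0.000182) and Syk (0.71, 0.00714). That fit pooled the spread over the 30 genes (60 degrees of freedom), which share the same cells. Its p-values thus rest on more than the 3 runs. Without Rag1-/- run 1 none of the genes passed (count 0), and without run 2 the count was 1. The Rag1-/- and B6 DN1d differences were themselves unequal for 44.8% of the 29 genes tested in both (limma, adjusted p under 0.05).

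Spi1, the other ETS gene of the panel, is described by its detection. It was detected in 63 of 78 DN2 cells, 16 of 223 B6 DN1d, 3 of 86 Tcrd-/- and 2 of 223 Rag1-/- cells. Over the 8 runs, the genes whose mean level was most like that of Etv5 were Blk (Pearson r = 0.978), Vd4-Jd1 (0.962), Vg2-Jg1 (0.947), Lef1 (0.939) and Ccr9 (0.888). Without the Tcrd-/- run these were 0.867, 0.909, 0.925, 0.771 and 0.512 over 7 runs. Gp49a (0.912) and Csf2rb2 (0.907), negative partners of Etv5 within B6 DN1d cells, then came above Blk. Gzma, a positive partner, went from 0.403 to -0.909, and these genes were singled out after their values were seen. The least like Etv5 over the 8 runs were Bhlhe40 (-0.711), Il7r (-0.671) and Zbtb16 (-0.665), at -0.877, -0.981 and -0.920 without the Tcrd-/- run. For Ets1 they were E2f2 (0.929), Gzma (0.898), Gata3 (0.807), Maf (0.792) and Il17re (0.778), and at the other end Spi1 (-0.392), Csf2rb2 (-0.387) and Gp49a (-0.353). Without the Tcrd-/- run the 5 highest of these fell to 0.923, 0.831, 0.698, 0.653 and 0.607, and the order changed: Id2 (0.949) then led and Sox13 (-0.848) and Vd4-Jd1 (-0.823) were lowest, genes singled out after their values were seen. Etv5 and Ets1 had r = 0.358 with each other over the 8 runs and -0.673 without the Tcrd-/- run. The values describe 8 runs that share their groups and depth.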

How the data were processed

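Single cells were captured on a Fluidigm C1 and read by quantitative PCR of 30 cycles after 18 of preamplification, per the labels' protocols. The deposited table holds 1 Ct per assay and cell, not normalised by the authors; 50.5% of values stand at 24, read here as undetected. The method of Ct calling is not stated in the labels. All 610 columns matched a sample by title, and no cells held identical values.

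Each gene had 1 value per run: the logit of the share of cells detected (0.5 added to each side), the mean level over all cells, or that over detected cells (at least 3 per run). limma 3.58.1 in R 4.3.3 fitted all 8 runs with a mean per group (4 residual degrees of freedom), with Benjamini-Hochberg over the assays tested and a threshold of 0.05. Partners of Etv5 were tested by log odds ratios against 0 over the 3 B6 DN1d runs, for genes detected and undetected in at least 3 cells of every run; limma pooled that spread over genes. The same test could not be fitted for Ets1, undetected in 1 cell, and was replaced, after seeing the data, by the difference in Ets1 level. Contrasts with Rag1-/- as the base and the level by Etv5 detection were also added after seeing the data. Etv5 partners were not tested in Rag1-/-, where a run had 1 cell with Etv5.

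The named partners are the 12 largest past the threshold, of which 1 gene is not reported here, though counts include it; the 5 most and 3 least alike genes go by Pearson's r. Genes and lists were chosen with earlier results of these data known. The fits were tested on simulated data. Tables used Python 3.11.15, numpy 2.4.6, pandas 2.3.3 and scipy 1.17.1, and figures matplotlib 3.10.9. Intervals of shares are exact (Clopper-Pearson, 95%), and a count of 0 allows 3 cells. Promoter windows are RefSeq's, of GRCm38.p6. Alternatives left out each run or cells with fewer than 10 assays, used Ct below 22, medians or a Gapdh shift, or adjusted for the number of assays.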

Additional observations from a re-analysis of the deposited data

Results flagged for a closer look

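The difference in Ets1 level between cells with and without a gene was set against the same difference in the other group, for 29 genes tested in both Rag1-/- cKit- and B6 DN1d. For 13 of them (44.8%) the 2 groups differed in limma over 6 runs (SE 0.42, adjusted p from 0.000370 to 0.0376), and the values of 12 follow. That SE was pooled over the 29 genes (116 degrees of freedom), which share the same cells, so the p-values rest on more than the 6 runs. The difference, Rag1-/- minus B6 DN1d, was -1.17 for Bcl11b, -1.30 for Blk, -1.38 for Il17re, -1.45 for Lef1, -1.06 for Maf and -1.17 for Sox4. It was -1.02 for Tcf12, -1.09 for the E47 form of Tcf3, -1.32 for Tox and -1.69 for Zbtb16. It was positive for Bhlhe40 (1.11) and Cdh1 (1.91). Ets1 level followed the number of assays detected more closely in B6 DN1d (rho 0.45 to 0.65 by run) than in Rag1-/- (0.22 to 0.29), as a description, and its part in these differences was not tested. With Gapdh level and the number of other assays as covariates, the Ets1 difference by Blk was -0.65 in B6 DN1d and -0.25 in Rag1-/-. The direction between groups thus turned for Blk. Other genes named here kept theirs, such as Il17re (-0.03 and -0.41) and Cdh1 (-0.96 and 0.41). No fit compared the 2 groups with these covariates.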

How the results depend on the processing

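Etv5 detection and level against B6 DN1d kept their direction and calls under the alternatives run, except under the exact permutation test in Rag1-/- (detection -2.53 and level -3.08, each p = 0.1, the smallest possible) and with medians over cells, which are 0 in both groups and give a level difference of 0 for DN2 and for Rag1-/-. Etv5 level in detected cells ranged, with 1 run left out, from -3.66 to -2.54 in DN2, 1.68 to 2.80 in Tcrd-/- and -3.50 to -2.12 in Rag1-/-, where medians gave -2.67 (limma, adjusted p = 0.0750). Against Rag1-/-, DN2 gave -0.61 for Etv5 detection with the number of other assays as a covariate, and 0.25 (Gapdh shift) and 0.49 (without Rag1-/- run 3; range -0.80 to 0.49) for level in detected cells.

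Ets1 detection is at its ceiling: with that covariate it was -0.14 in DN2 and -0.16 in Tcrd-/- against B6 DN1d, and -0.27 (Tcrd-/-) and -0.26 (DN2) against Rag1-/-. With 1 run left out it ranged from -0.039 to 0.58 for Rag1-/- against B6 DN1d and from -0.090 to 0.18 for DN2 against Rag1-/-. Ets1 level in DN2 was -0.49 (Gapdh shift), -0.031 (cells with few assays left out) and -0.22 to 0.24 (1 run left out); in detected cells it was 0.050 (medians) and -0.29 to 0.16. For Rag1-/-, Ets1 level was 1.26 (medians) and 0.79 (Gapdh shift), and in detected cells of Tcrd-/- 1.82 to 2.28 with 1 run left out.

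Positive partners of Etv5 numbered 12 within tertiles and 11 to 14 with 1 run left out, and negative ones 1 to 4. For Ets1 level in B6 DN1d the counts were 0 and 0 with Gapdh and other assays as covariates (Etv5 -0.22), and 0 to 19 and 0 to 3 with 1 run left out. In Rag1-/- they were 3 higher and 3 lower with those covariates, 1 higher with the Gapdh shift, 1 with few-assay cells left out, and 0 to 2 with 1 run left out. The cause of these changes was not tested. No paired analysis was possible because runs are not shared between groups.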
